A study of Nicotiana tabacum with 8 samples.

Results

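The cold response of the tobacco cultivar CB-1 was described from 4 of the 8 leaf libraries of the series, the cold-treated libraries CT1 and CT2 and the control libraries CC1 and CC2. Plants of *Nicotiana tabacum* were raised in pots to the stage of 6 leaves, CT plants were then kept at 4 °C for 1 day, and CC plants stayed under the normal warm growth conditions. No transgene, mutation or chemical is named for either group. Each library pooled leaves of several plants, and the experiments were done in duplicate. It is not stated whether the duplicates were grown apart, so that the p-values measure the spread between these libraries, which may be partly technical. The other 4 libraries came from a second cultivar, K326, treated in the same way (KT1 and KT2, cold; KC1 and KC2, control), and they entered the fit only to share the estimate of the spread and for the comparison given near the end.

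The features are unigenes, which are transcripts assembled from the reads with no genome, and the values are log2(abundance + 1). A unigene was used where its value on the linear scale was at least 1 in at least 2 of the 4 CB-1 libraries, which held for 25333 of the 135146 unigenes in the table. A unigene was called as risen or fallen under cold where the adjusted p-value was under 0.05 and the log2 fold change, CT minus CC, was over 1 in size (limma with Benjamini-Hochberg adjustment over all 25333). Names were at hand for 415 unigenes, of which 330 were tested, and they rest on the best protein match of each, most often in another species. An exact 0 in such a table can be an absent transcript or a failed estimate, so each library is given where a group is listed at 0. A lower level in leaf RNA can come from fewer cells of a type or from less RNA per cell, and these cannot be told apart here.

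Plants read cold through changes in membranes and through calcium entering the cell. In *Arabidopsis*, calcium-binding factors of the CAMTA family and the protein ICE1 start the DREB1 genes, also called CBF, whose products bind a short element in the promoters of cold-regulated (COR) genes. COR, LEA and early light-induced proteins protect membranes, enzymes and chloroplasts in the cold. The related DREB2 factors are better known from drought and heat, while ERF, WRKY and NAC factors serve several stress and wounding responses. Heat shock factors switch on chaperones, the proteins that keep others folded.

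The sequences at hand for these unigenes are the primers with which the study measured some of them by quantitative PCR. Primer pairs of 6 unigenes that the results below turn on are shown 5′ to 3′ in lower case, with nothing set in capitals. They show which unigene the study paired with each name, and they were not matched to a transcript sequence here. WRKY33, ABR1 and CRF6 are stress regulators, DREB2A is a DREB factor, ELF4 belongs to the circadian clock and COR413 is a membrane protein of the COR group.
WRKY33 c78380_g1 forward: atccaaagcctcagtccact
WRKY33 c78380_g1 reverse: caatgtcctcgtcgccaaaa
ABR1 c74525_g2 forward: agagggtggataatggctgg
ABR1 c74525_g2 reverse: cctctccttcatatcccctgc
CRF6 c64865_g1 forward: tttcgtggggttaggcagag
CRF6 c64865_g1 reverse: gtcaaagcatcaggaccacg
DREB2A c73886_g1 forward: gttgaagtcttcctgccgtc
DREB2A c73886_g1 reverse: gactccactggatacctcgg
ELF4 c63831_g1 forward: acgaccttggaaatgttgcc
ELF4 c63831_g1 reverse: ctccaacagattccggcaag
COR413 c70842_g1 forward: gggtctggtgagggtaatgt
COR413 c70842_g1 reverse: ggctcttctttcacgacgac

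The control libraries did not pair by their cultivar labels. CC2 resembled KC1, and CC1 resembled KC2. The unigenes at a log2 value of 3 or more in CC2 and at 0 in the other 3 CB-1 libraries numbered 62, and all 62 were above 0 in KC1, a control library labelled K326, while 6 of them were above 0 in KC2. In the K326 cold libraries, 55 of the 62 were above 0 in KT1 and 56 in KT2. The same count was 15 for CT1, 7 for CT2 and 10 for CC1. In the other direction, 250 unigenes were at 0 in the library labelled CC2 and at a linear value of 1 or more in the other 3, and 174 of these were also at 0 in KC1. Of the 250, 133 were at 0 in KT1, 126 in KT2 and 35 in KC2. The library labelled KC2 stood apart in the same way among those of K326. At a log2 value of 3 or more in KC2 and at 0 in the other 3 K326 libraries were 49 unigenes, and all 49 were above 0 in CC1, 41 in CT1 and 42 in CT2, while 4 were above 0 in CC2. An exchange of labels between CB-1 and K326 controls was not tested, and labels were kept as deposited. Over the 25333 unigenes, the correlation of CC1 with KC2 was 0.967 and that of CC2 with KC1 was 0.958, while CC1 and CC2 correlated at 0.952 and CT1 with CT2 at 0.934 (Pearson, across unigenes, which are not independent replicates). The median absolute difference was 0.15 between CC1 and KC2 and 0.20 between CC1 and CC2. It was 0.23 between CC2 and either of KC1 and KC2, so this measure did not place CC2 nearest to KC1. Cold libraries correlated with control libraries of CB-1 at between 0.603 and 0.671, below every pair of libraries of one treatment in the series, which correlated at 0.89 or more. Counts below are given with and without the library labelled CC2 where it moves them by over 1.5 times.

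**Figure D1:**
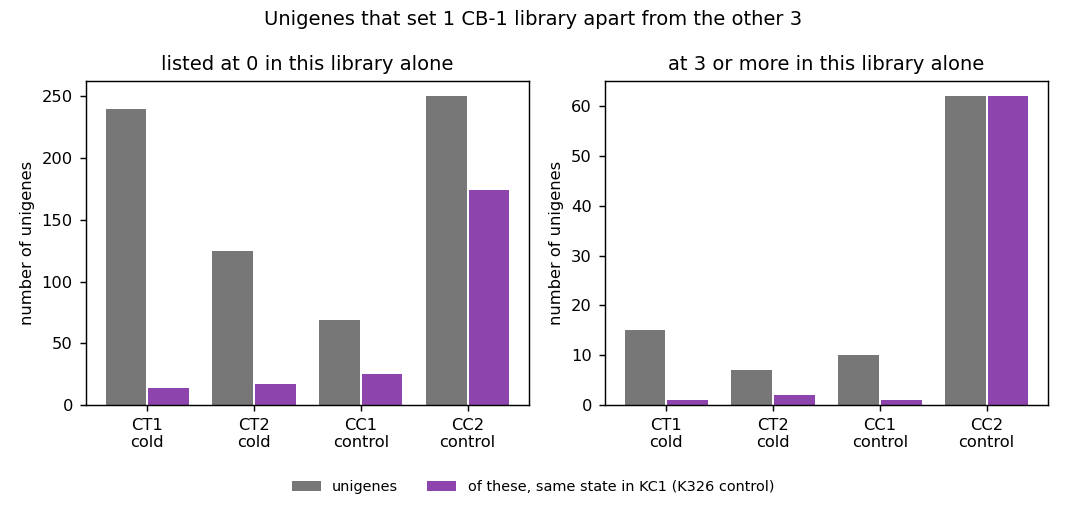
Number of unigenes listed at 0 in 1 CB-1 library alone (left) and at a log2 value of 3 or more in 1 CB-1 library alone with 0 in the other 3 (right), by library, with the part that has the same state in the K326 control library KC1. For CC2, 174 of 250 and 62 of 62 share the state of KC1, against 14 of 240 and 1 of 15 for CT1.

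The library labelled CC2 stood apart in single named unigenes as well. NLP1 (c74453_g1), a regulator of nitrate responses in other plants, was listed at 0 in CT1, CT2 and CC1 and at 5.33 in CC2, beside 5.44 in KC1 and 0 in KC2. A subunit of the Sec61 channel, through which new proteins enter the endoplasmic reticulum (sec61a, c72544_g1), stood at 6.24 and 6.11 in CT1 and CT2, against 4.78 in CC1 and 0 in CC2, beside 0 in KC1 and 4.75 in KC2. The nuclear factor Y subunit NFYB7 (c70415_g4) stood at 4.98 and 5.08 in the cold libraries, against 4.46 in CC1 and 0 in CC2. In K326 it stood at 4.50 in KC2 and at 0 in KC1, KT1 and KT2. Neither sec61a nor NFYB7 was called (adjusted p = 0.146 and 0.235), and without CC2 the log2 difference was 1.4 for sec61a and 0.57 for NFYB7.

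Cold changed a large part of the leaf transcriptome. Of the 25333 unigenes, 4899 rose, which is 19.3% of those tested, and 5474 fell, which is 21.6%, so that 40.9% were called in either direction. The median log2 fold change was 1.87 among the unigenes that rose and -1.59 among those that fell, and over all tested unigenes it was -0.22. Rises were the larger changes, since 264 unigenes rose by over 4 on the log2 scale and 64 fell by as much. The cold and control libraries did not overlap for 19750 unigenes, or 78.0%, which is the background against which any such count below has to be read. A call already asks for a gap that is large beside the spread, so among called unigenes such a count adds little. Scaling the libraries by the median of their ratios moved the median change to 0.04 and the split to 5599 rises and 4174 falls. The balance of rises and falls therefore rests on the scaling.

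**Figure D2:**
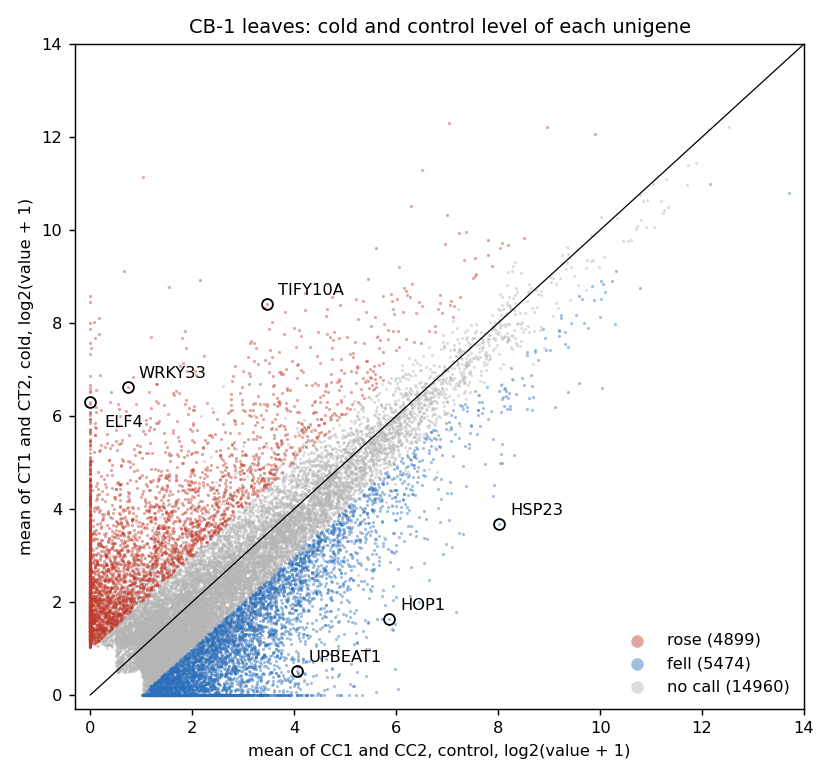
Mean level of each tested unigene in the cold libraries CT1 and CT2 (vertical) and in the control libraries CC1 and CC2 (horizontal), both as log2(value + 1), with the diagonal of equal levels. The 4899 unigenes that rose lie above the diagonal and the 5474 that fell lie below it, with many of both kinds on the axes, where one condition was at 0; circles mark 6 named unigenes.

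A part of these calls came from unigenes seen in one condition alone. In both control libraries 2096 tested unigenes were listed at 0, with a median cold level of 1.92, and 1641 of them were also at 0 in KC1 and KC2. In both cold libraries 1289 were at 0, with a median control level of 1.73, and 800 of them were at 0 in KT1 and KT2. Such unigenes passed the filter only through the condition in which they were present, so their number supports nothing. Among the 21948 unigenes above 0 in at least 1 library of each condition, 13.1% rose and 19.3% fell.

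The unigenes with the largest changes carried no name. Unigene c14053_g1 stood at 11.29 and 10.99 in the cold libraries, against 1.62 and 0.42 in the controls, a log2 fold change of 10.12. Unigene c61196_g1, at 12.36 and 12.24 in the cold libraries, against 6.95 and 7.11 in the controls, had the highest mean value of the cold libraries. Its mean linear value was 38.7 times that of the controls. Among falls, c56999_g1 was at 0.27 and 0 in the cold libraries, against 6.18 and 5.89 in the controls. Unigene c65770_g3, which had the highest mean value of the control libraries, stood at 10.90 and 10.69 under cold, against 13 and 14.40 in the controls, where CC1 and CC2 lay further apart than CT1 and CT2.

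Unigenes with names were grouped by known role into 25 lists with 227 unigenes, of which 181 were tested. Most names came from the study's own selection of transcription factors and qPCR genes, or from a sheet ordered by how far the cultivars differed. Many of the transcription factors were those that the study ranked highest by cold change in these same libraries. The counts are therefore not independent evidence of a direction. They are given beside the background of 19.3% rising and 21.6% falling.

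**Figure D3:**
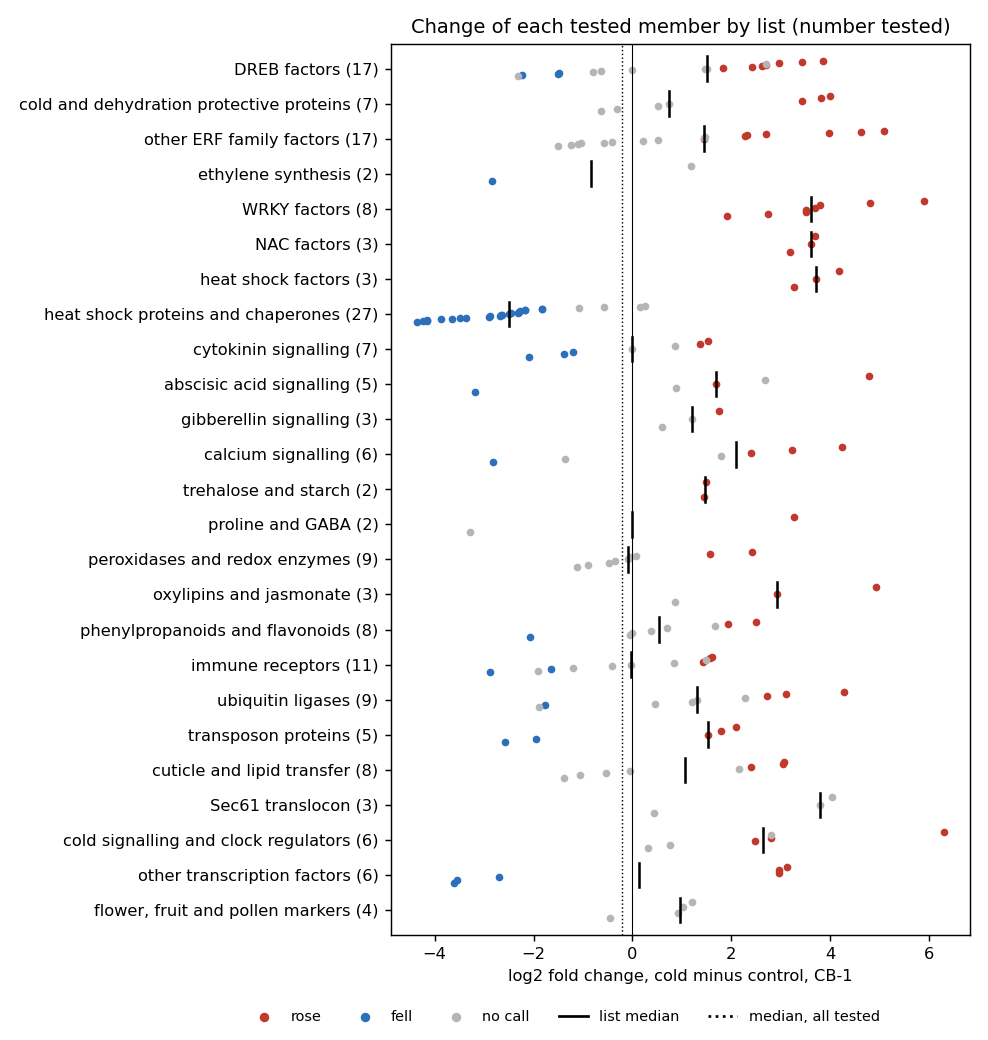
Log2 fold change of each tested member of the 25 lists in CB-1, cold minus control, coloured by call; black bars are list medians and the dotted line is the median of -0.22 over all tested unigenes. All 8 WRKY, 3 NAC and 3 heat shock factor unigenes lie on the side of higher cold levels, and 23 of 27 chaperone unigenes are called on the other side.

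The DREB factors that were called split by subfamily, with DREB1 and DREB2 unigenes among the rises and DREB3 unigenes among the falls. Of 18 members 17 were tested, 7 rose and 3 fell, with a median log2 fold change of 1.5. However, 9 of the 17 were at 0 in both control libraries, and of the 8 that were above 0 in both conditions 1 rose and 3 fell. The one that rose, DREB2H (c52393_g1), stood at 4.32 and 4.55 in the cold libraries, against 1.18 and 0 in the controls (log2 fold change 3.85, SE 0.51, adjusted p = 0.0019). Another DREB2H unigene (c71056_g1) stood at 2.77 and 4.10 under cold, and DREB2C (c74172_g1) at 2.61 and 3.32, both against 0 in CC1 and CC2. DREB2A (c73886_g1) stood at 1.98 and 3.27 in the cold libraries, against 0 in both controls. Another DREB2A unigene (c70895_g1), at 1.96 in CT1 and 1.04 in CT2, against 0 in both controls, was not called (adjusted p = 0.0509). In the DREB2 unigenes that rose both cold libraries lay above both controls, and CT1 was the lower of the cold libraries.

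Of the DREB1 unigenes, DREB1B (c70702_g2) rose, with 1.96 and 2.90 under cold and 0 in both controls. A DREB1F unigene (c24612_g1) also rose, with 2.59 and 1.06 under cold and 0 in both controls (log2 fold change 1.82, SE 0.57, adjusted p = 0.0356), and without CC2 its adjusted p was 0.122. Another DREB1F unigene (c64765_g1) was at 1.02 in CT1 and 4.40 in CT2, against 0 in both controls, and was not called (adjusted p = 0.0587). It was called without CT1 (adjusted p = 0.00216) and without CT2 (adjusted p = 0.0492), each time with 1 cold library that is assumed to vary like the others. It was also called with a pseudocount of 0.1 (adjusted p = 0.0141), with all controls as one group (adjusted p = 0.02) and in a replicate block with the numbers of the K326 controls crossed, chosen after seeing the data (adjusted p = 0.049). DREB1D (c79563_g1) was at 0 in CT1 and 4.39 in CT2, against 4.83 and 4.17 in the controls, so that its cold libraries lay further apart than the group means, which differed by -2.31. The DREB unigenes that fell were all named DREB3. The one with the largest fall, c71296_g1, stood at 1.48 and 1.05 in the cold libraries, against 3.33 and 3.66 in the controls (log2 fold change -2.23, SE 0.33).

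Among the proteins that protect cells from cold and drying, 3 of the 7 tested unigenes rose and none fell. DSP-22 (c95449_g1), a chloroplast protein named after one of the resurrection plant *Craterostigma*, stood at 5.28 and 5.13 in the cold libraries, against 2.39 in CC1 and 0.01 in CC2. A small membrane protein of the UPF0057 family (c10785_g1), related to the cold-induced RCI2 proteins of *Arabidopsis*, stood at 5.41 and 5.23 under cold, against 1.32 and 1.67 in the controls. COR413 (c70842_g1), a membrane protein of the plasma membrane or chloroplast, stood at 4.86 and 4.36 in the cold libraries, against 1.15 and 1.21 in the controls. Their log2 fold changes were 4.00, 3.82 and 3.43, and the cold libraries lay above the controls in each. A second COR413 unigene (c73381_g1) stood at 5.52 and 5.75 under cold, against 5.32 and 4.93, and was not called (adjusted p = 0.0647). COR413I (c81086_g1) stood at 1.47 and 1.43 under cold, against 2 and 2.17, a difference of -0.64 that was below the required size. The early light-induced protein (c65239_g1) was at 6.93 in each cold library, against 7.79 and 6.71 in the controls, and its groups overlapped.

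The other ERF factors held some of the named unigenes with the largest rises. Of 18 members 17 were tested, 7 rose and none fell, and among the 13 that were above 0 in both conditions 3 rose. Without CC1 or without CT2, 6 rose and 1 fell. ABR1 (c74525_g2), which represses abscisic acid responses in *Arabidopsis*, stood at 4.82 and 5.35 in the cold libraries, against 0 in both controls (log2 fold change 5.09, SE 0.31, adjusted p = 0.000242). CRF6 (c64865_g1), a cytokinin response factor, stood at 4.25 and 4.98 under cold, against 0 in both controls. ERF053 (c81375_g1) was above 0 in all 4 libraries, at 4.20 and 4.88 under cold, against 0.85 and 0.28. A second ABR1 unigene (c81178_g1) stood at 2.37 and 3.04 under cold, against 0 in both controls.

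In other ERF unigenes the cold libraries disagreed. ERF109 (c79891_g2), a redox-responsive factor in *Arabidopsis*, was at 0 in CT1 and 4.39 in CT2, against 1.49 in CC1 and 0 in CC2 (adjusted p = 0.421). Without CT1 it was called as risen (adjusted p = 0.0375), and without CT2 its sign turned. Across the list, 14 of 17 unigenes were lower in CT1 than in CT2, beside 53.9% of all tested unigenes. CT1 was the library with the fewest reads in the study and CT2 that with the most, and the part of this in the gaps between them was not tested. Of the unigenes named ACO3, after the enzyme for the last step of ethylene synthesis, 2 of 3 were tested, and both matched a homolog of that enzyme. One of them (c78383_g9) fell and was at 0 in both cold libraries, against 2.17 and 3.52 in the controls. The other (c70755_g3) stood at 3.49 and 2.68 under cold, against 2.94 and 0.87, and was not called. The unigene matched to the enzyme itself (c74817_g1), at 0 in both cold libraries, against 0.13 and 1.70, was too low to be tested.

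All 8 tested WRKY unigenes rose, of 10 named, with a median log2 fold change of 3.61. All 8 come from the study's ranking of transcription factors by cold change in these same libraries, so the count supports nothing. Of these, 7 were above 0 in both conditions and all 7 rose. WRKY33 (c78380_g1), a regulator of defence and camalexin synthesis in *Arabidopsis*, stood at 6.28 and 6.98 in the cold libraries, against 0.21 and 1.25 in the controls (log2 fold change 5.90, SE 0.86, adjusted p = 0.00253). A second unigene of the same assembled component (c78380_g2) stood at 5.63 and 6.17 under cold, against 0.57 and 1.62, and both may share reads. WRKY6 (c83950_g2) stood at 3.88 and 4.06 under cold, against 0.15 and 0.21 in the controls. WRKY11 (c72670_g1) stood at 5.30 and 6.07 under cold, against 1.91 and 2.06. The cold libraries lay above the controls in all 8, which adds little to the calls themselves, and CT1 lay below CT2 in all 8. WRKY40 (c67824_g2), at 4.49 and 4.91 under cold, against 1.18 and 2.74, was the nearest to the threshold (adjusted p = 0.0423). It lost its call when any one of the 4 CB-1 libraries was left out (adjusted p between 0.0563 and 0.203).

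The 3 tested NAC unigenes, all named NAC002 and all of one component, rose by between 3.19 and 3.70 on the log2 scale. All 3 come from the same ranking by cold change. NAC002, also known as ATAF1, is a stress-induced factor in *Arabidopsis*. Its unigene with the highest values (c69854_g3) stood at 6.87 and 6.07 in the cold libraries, against 2.92 and 2.61 in the controls. In contrast to the WRKY unigenes, CT1 lay above CT2 in all 3. Without CT1, 2 of the 3 rose, and c69854_g1 lost its call (adjusted p = 0.0543).

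**Figure D4:**
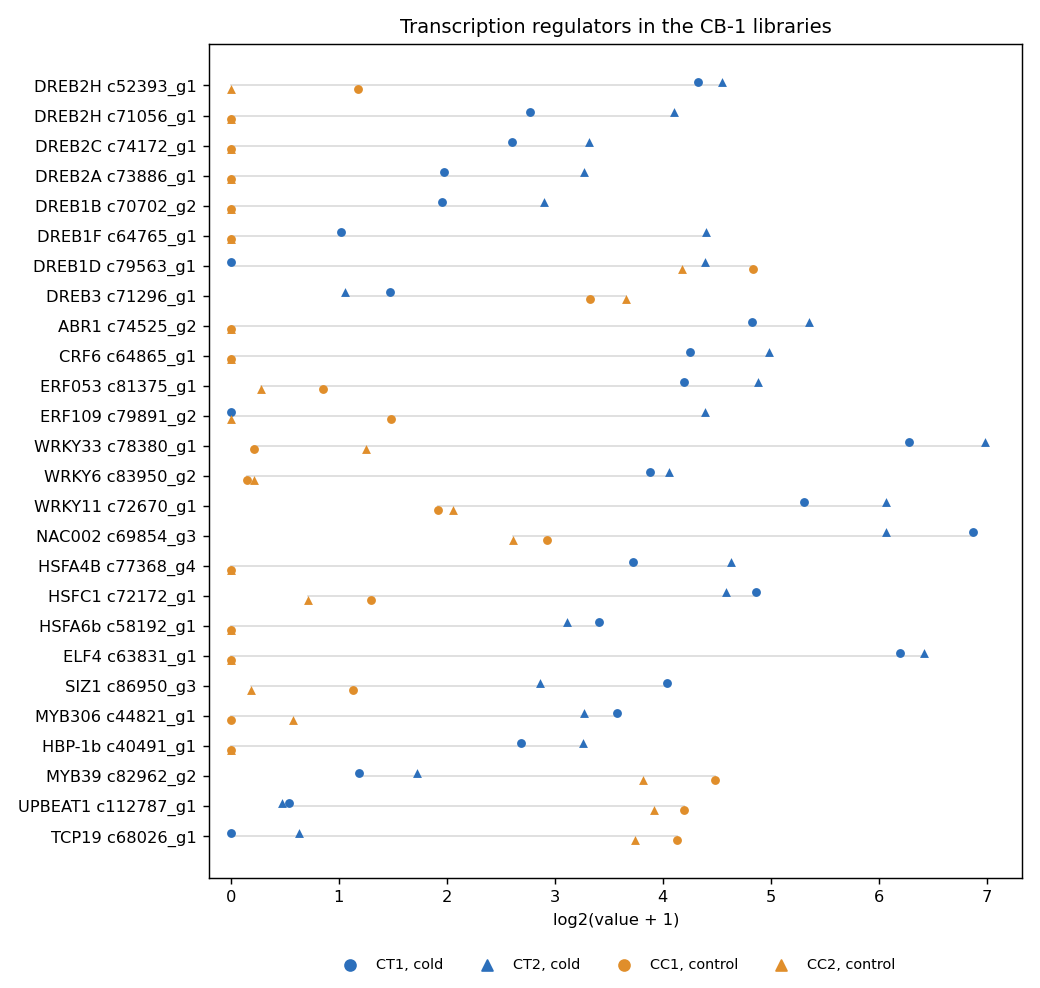
Level of 26 transcription regulators in each CB-1 library as log2(value + 1), with cold libraries in blue and controls in orange; circles are replicate 1 and triangles replicate 2. Most regulators have both cold libraries above both controls, MYB39, UPBEAT1, TCP19 and DREB3 lie the other way, and DREB1D and ERF109 have 0 in CT1 and 4.39 in CT2.

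All 3 heat shock factor unigenes rose, of which 1 was above 0 in both conditions and 2 were at 0 in both controls. All 3 come from the study's ranking of transcription factors by cold change, so the count supports nothing. HSFC1 (c72172_g1) stood at 4.86 and 4.58 in the cold libraries, against 1.30 and 0.72 in the controls (log2 fold change 3.71, SE 0.28, adjusted p = 0.000386). HSFA4B (c77368_g4) stood at 3.73 and 4.63 under cold, against 0 in both controls. HSFA6b (c58192_g1) stood at 3.40 and 3.11 under cold, against 0 in both controls.

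Of 32 unigenes for heat shock proteins and other chaperones, 27 were tested, 23 fell and none rose, beside a background of 21.6% falling. The names of many of them came from the sheet ordered by the difference between cultivars. In all 27 the log2 fold change was lower in CB-1 than in K326, so this choice favours falls in CB-1. The share can therefore not be read against the background. The median log2 fold change was -2.49, and among the 24 that were above 0 in both conditions 20 fell. Without the library labelled CC2, 15 of the 27 fell and none rose. Several of the 27 share an assembled component, and close copies can share reads, so they are not 27 separate genes.

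The falls ran through small heat shock proteins, DnaJ proteins and the HSP70, HSP90 and ClpB types. The small heat shock protein of the chloroplast, HSP23 (c69709_g1), stood at 3.21 and 4.14 in the cold libraries, against 7.78 and 8.27 in the controls (log2 fold change -4.35, SE 0.35, adjusted p = 0.000426). Its mean linear value under cold was 0.0473 of that in the controls. HOP1 (c66022_g6), the co-chaperone that links HSP70 to HSP90, stood at 1.72 and 1.56 under cold, against 5.81 and 5.92. A DnaJ protein named Dnajb13 (c74869_g3), one of the partners that drive HSP70, stood at 0.87 and 1.63 under cold, against 4.94 and 5.85. A class IV small heat shock protein (c94255_g1) stood at 1.18 and 0 under cold, against 3.92 and 5.55. In these 4 the cold and control libraries lay over 2 log2 units apart. The class IV protein lost its call without CT2 (adjusted p = 0.0513).

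Unigenes of the HSP70 family fell or were not called, and none rose. HSC-2 (c81601_g2), a heat shock cognate protein of the HSP70 type, stood at 4.50 and 5.84 in the cold libraries, against 8.05 in each control (log2 fold change -2.88, SE 0.44). In the same component, an HSP70 unigene (c81601_g7) stood at 2.82 and 3.88 under cold, against 3.07 and 3.31, and its groups overlapped. Another HSP70 unigene (c15315_g1) stood at 1.43 and 3.16 under cold, against 1.99 and 2.10, and also overlapped. ClpB1 (c84903_g1), which pulls apart protein aggregates, stood at 2.75 and 3.31 under cold, against 5.38 and 5.67 in the controls.

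The HSP90 type was called with less certainty. HSP83A (c84102_g2) was at 0 in CT1 and 3.67 in CT2, against 5.09 and 5.32 in the controls, and it lost its call without either control (adjusted p = 0.124 without CC1 and 0.142 without CC2). Across the list 21 of 27 unigenes were lower in CT1 than in CT2. Among the 23 that fell, the cold libraries lay below the controls in every one, which adds little to the calls themselves.

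**Figure D5:**
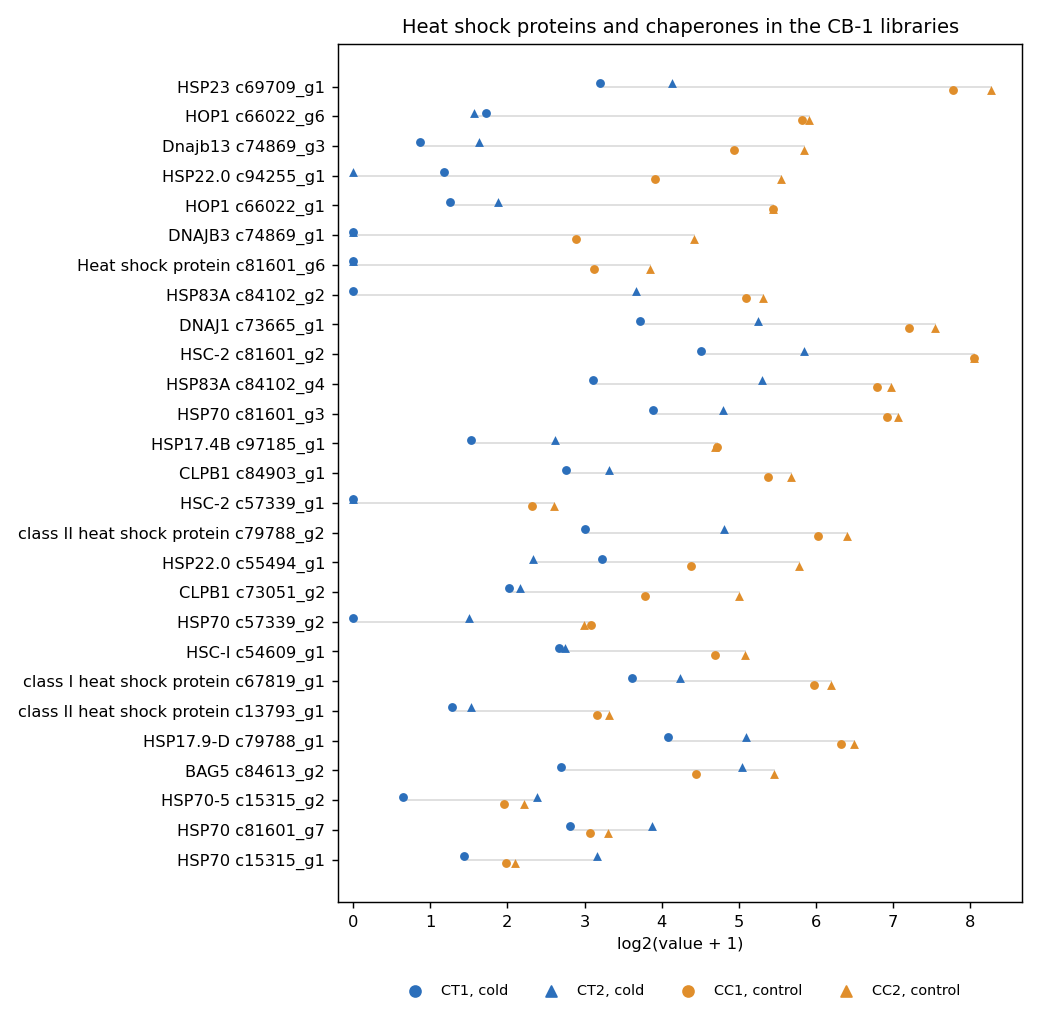
Level of the 27 tested heat shock protein and chaperone unigenes in each CB-1 library as log2(value + 1), ordered by log2 fold change from the largest fall at the top; cold libraries in blue, controls in orange, circles for replicate 1 and triangles for replicate 2. In the upper 23 rows the cold libraries lie below the controls; in the lower 4 rows they overlap or reach the controls.

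The circadian and cold signalling genes included the named unigene with the largest rise. ELF4 (c63831_g1), a part of the evening complex of the plant clock, stood at 6.20 and 6.41 in the cold libraries, against 0 in both controls (log2 fold change 6.30, SE 0.20, adjusted p = 8e-05). SIZ1 (c86950_g3), a SUMO ligase that stabilises ICE1 in *Arabidopsis*, stood at 4.04 and 2.87 under cold, against 1.13 and 0.19. BHLH92 (c71107_g1) stood at 2.72 and 2.23 under cold, against 0 in both controls, and lost its call without CT1 (adjusted p = 0.0542). CMTA3 (c85046_g1), the CAMTA factor that activates DREB1 genes in *Arabidopsis*, stood at 4.45 and 4.59 under cold, against 3.74 and 3.81. Its groups did not overlap, but the log2 difference of 0.75 was under the required size. HOS1 (c85784_g1), a ubiquitin ligase acting on ICE1, stood at 2.35 and 2.63 under cold, against 2.30 and 2.04, and was not called.

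Of the 6 other transcription factors in the lists 3 rose and 3 fell. All 6 come from the study's ranking by cold change in these same libraries, so the count supports nothing. MYB306 (c44821_g1), HBP-1b (c40491_g1) and GT-3A (c73618_g1) rose by 3.13, 2.97 and 2.96 on the log2 scale. MYB306 stood at 3.58 and 3.27 in the cold libraries, against 0 in CC1 and 0.57 in CC2. TCP19 (c68026_g1), UPBEAT1 (c112787_g1) and MYB39 (c82962_g2) fell by 3.61, 3.55 and 2.70. UPBEAT1, which controls peroxidase genes and root growth in *Arabidopsis*, stood at 0.54 and 0.47 under cold, against 4.20 and 3.92. TCP19 stood at 0.01 and 0.63 under cold, against 4.13 and 3.74. In both, the control libraries were more than 3 log2 units above the cold ones. MYB39 lost its call without CT1 (adjusted p = 0.0537).

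In cytokinin signalling 7 of 8 unigenes were tested, 2 rose and 3 fell, and those that fell included receptors. The receptors AHK4 (c85969_g1), at 2.18 and 3.10 in the cold libraries, against 5.18 and 4.26, and AHK3 (c85178_g2), at 2.65 and 2.48 under cold, against 3.76 and 4.14, both fell. The type B regulators, which switch on cytokinin targets, were ARR1 (c86033_g1), at 4.27 and 4.44 under cold, against 2.87 and 2.78, and ARR14 (c81815_g3), at 1.38 and 1.35 under cold, against 0 in both controls, and both rose. The zeatin glucosyltransferase ZOG1 (c30781_g2), which stores cytokinin as a glucoside, stood at 2.01 and 2.50 under cold, against 3.75 and 3.17, and fell by 1.21. The calls of AHK4 and ZOG1 were lost without CT1 (adjusted p = 0.105 and 0.0867) and without CC1 (adjusted p = 0.0969 and 0.089). The type A regulator ARR4 (c72839_g1) stood at 3.06 and 3.78 under cold, against 3.06 and 2.04, and was not called.

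The other hormone lists were small. For abscisic acid, 5 of 8 unigenes were tested, 2 rose and 1 fell, and the protein phosphatases of type 2C went both ways. The names of these phosphatases give their type alone, and whether they act in abscisic acid signalling was not tested. Under median-ratio scaling 4 of the 5 rose and 1 fell. A phosphatase that rose (At1g07160, c71477_g1) stood at 5.60 and 6.87 in the cold libraries, against 1.84 and 1.05 in the controls (log2 fold change 4.79, SE 0.74). Another (At3g05640, c76998_g4) stood at 0.38 and 1.16 under cold, against 3.66 and 4.26 (log2 fold change -3.19, SE 0.41). ABA2 (c72991_g13), an enzyme of abscisic acid synthesis, stood at 1.65 and 1.73 under cold, against 0 in both controls. For gibberellin, 1 of 3 tested unigenes rose, GA2OX2 (c70247_g1), whose enzyme inactivates the hormone, at 2.04 and 1.89 under cold, against 0.40 and 0.04, and 2 rose under median-ratio scaling. Of 3 tested unigenes for oxylipins and jasmonate, 2 rose. TIFY10A (c79352_g2), a JAZ repressor of jasmonate responses, stood at 8.42 and 8.37 under cold, against 4.59 and 2.35 in the controls (log2 fold change 4.92, SE 0.67, adjusted p = 0.002). The alpha-dioxygenase DOX1 (c80558_g1) stood at 3.42 and 2.48 under cold, against 0 in CC1 and 0.04 in CC2.

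In calcium signalling 3 of 6 tested unigenes rose and 1 fell. The annexin ANN4 (c73521_g1), a protein that binds membranes in the presence of calcium, stood at 6.71 and 7.43 in the cold libraries, against 2.58 and 3.10 in the controls (log2 fold change 4.23, SE 0.29, adjusted p = 0.000309). The kinase CIPK11 (c75409_g1), which works with calcineurin B-like sensors, stood at 3.46 and 4.62 under cold, against 1.23 and 0.41. CML31 (c79475_g1) stood at 3.17 and 4.95 under cold, against 1.95 and 1.37, close to the threshold (adjusted p = 0.049), and lost its call without CC1, CC2 or CT2 (adjusted p between 0.114 and 0.233). The calcium-dependent kinase CPK29 (c83064_g7) was at 0 in both cold libraries, against 3.48 and 2.15, and lost its call without CT1 (adjusted p = 0.0545).

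Of the ubiquitin ligases, 9 of 11 were tested, 3 rose and 1 fell. The 3 that rose were U-box proteins, a plant family of ligases known from drought and defence. PUB19 (c83880_g1) stood at 3.69 and 5.18 in the cold libraries, against 0.12 and 0.18 in the controls (log2 fold change 4.29, SE 0.62). PUB23 (c75519_g1) stood at 2.08 and 4.97 under cold, against 0.47 and 0.39, and PUB21 (c74253_g1) at 1.59 and 3.85, against 0 in both controls. Both lost their call without either control library (adjusted p between 0.0725 and 0.125), and PUB23 also without CT2 (adjusted p = 0.111). Without CC2 1 of the 9 rose and none fell, without CT1 5 rose and none fell, and without CT2 2 rose and 2 fell. In all 3, CT2 was the higher cold library by over 1 log2 unit.

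Metabolic and wall genes showed single changes. In sugar metabolism BAM3 (c45572_g1), the beta-amylase that breaks down leaf starch, stood at 1.84 and 1.26 in the cold libraries, against 0.12 and 0, and the trehalose phosphate synthase TPS6 (c86349_g3) at 3.27 and 2.62, against 2.10 and 0.90. Both rose, and neither call held without CC2 (adjusted p = 0.0724 and 0.156) or without CT1 (adjusted p = 0.0809 and 0.181). Without CC1 the call of BAM3 was lost (adjusted p = 0.059), and without CT2 that of TPS6 (adjusted p = 0.0602). Glutamate decarboxylase GAD3 (c71079_g2), which makes GABA, stood at 2.81 and 3.92 under cold, against 0.18 and 0, and lost its call without CT2 (adjusted p = 0.0537).

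Of 9 tested peroxidase and redox unigenes 2 rose, PNC1 (c82714_g3), at 3.05 and 3.50 under cold, against 0.75 and 0.96, and PER16 (c69608_g1), at 1.01 and 2.13, against 0 in both controls. PNC1 lost its call when any one of the 4 CB-1 libraries was left out (adjusted p between 0.0693 and 0.0956) and with all controls as one group (adjusted p = 0.09). PER16 lost its call without CC1, CC2 or CT2 (adjusted p between 0.113 and 0.141), and without CT2 1 unigene of the list fell. Of 8 tested unigenes for phenylpropanoids and flavonoids 2 rose and 1 fell, and without CC1, CC2 or CT2 1 rose. An anthocyanidin glycosyltransferase (RT, c85214_g3) stood at 3.13 and 3.29 under cold, against 1.42 and 0, while the lignin enzyme HST (c69634_g2) stood at 1.27 and 0.70, against 3.70 and 2.43, and lost its call without CT2 (adjusted p = 0.0581). In the cuticle list 3 of 8 rose and none fell, with 1 rise without CC1 or without CC2, and 4 rises and 1 fall without CT2. The transporter ABCG32 (c68383_g1), which exports cutin precursors, stood at 4.44 and 4.50 under cold, against 1.38 and 1.43 in the controls (log2 fold change 3.07, SE 0.32). The wax enzyme CER3 (c79956_g1) stood at 4.29 and 2.10 under cold, against 0.31 and 0, and lost its call without either control (adjusted p = 0.0577 without CC1 and 0.0738 without CC2).

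Immune receptors showed no common direction, with 3 of 11 tested unigenes rising and 2 falling. A unigene named after the tobacco mosaic virus receptor N (c59548_g1) was at 0 in both cold libraries, against 3.12 and 2.62, and the late blight receptor R1A-4 (c81873_g2) at 0, against 1.55 and 1.74. Another, R1B-16 (c71869_g13), stood at 1.74 and 1.51 under cold, against 0.03 and 0. FLS2 (c85695_g3), the receptor for bacterial flagellin, stood at 1.54 and 1.32 under cold, against 0 in both controls. The calls of N and FLS2 were lost when any one of the 4 CB-1 libraries was left out (adjusted p between 0.0682 and 0.151). Leaving out CC1, CC2 or CT2 left 2 rises and 1 fall, and leaving out CT1 left 3 rises and 1 fall. Of 5 tested transposon unigenes 3 rose and 2 fell, and 4 of the 5 were at 0 in one condition.

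The samples are labelled as leaf. Of 6 markers of flower, fruit and pollen, between 3 and 5 were above 0 in each CB-1 library, 4 were tested and none was called. Their summed linear value was 22.5 and 14.9 in the cold libraries, against 14.9 and 8.01 in the controls, and the pollen allergen OLE6 was at 0 in all 4. Among chloroplast proteins with names, the early light-induced protein, the superoxide dismutase FSD2 (c67714_g1) and the heme enzyme HEME1 (c74027_g1) were above 0 in all 4 libraries. Others of this kind were not. BAM3 (c45572_g1) and a TIC214 unigene (c61064_g1) were at 0 in CC2, and another TIC214 unigene (c71384_g3) was at 0 in CC1.

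The share of unigenes called differed with level. With the tested unigenes in 5 bands of equal size by mean level, 30% rose and 29% fell in the lowest band, and 13% rose and 15.8% fell in the highest. The lowest band ran from a mean of 0.50 to 1.05. Unigenes at its lower edge passed the filter in 2 libraries and must be near 0 in the others. The filter thus brings unigenes seen in one condition alone into this band, so the shares cannot be read as an effect of level. The median gap between the cold libraries was 0.25 in the lowest band and 0.30 in the highest, and that between the controls was 0.16 and 0.19. Leaving out the library labelled CC2 gave 8107 calls, or 32.0%, with 3712 rises and 4395 falls. Of the 10373 calls made with it, 7790 were also made without it in the same direction, and none turned round.

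Set against K326, no unigene was called for a difference in the cold response between the cultivars (limma, adjusted over the 25333 tested, 2332 at an unadjusted p under 0.05, smallest adjusted p = 0.127). Without moderation of the variance 58 were called, with a smallest adjusted p of 2.9e-58 (unmoderated t-test). With so few libraries such a value needs a spread close to 0, and how many of the 58 rest on this was not tested. Leaving out 1 cold library of CB-1 gave 181 calls without CT1 and 383 without CT2. Since the control libraries did not group by their labels, any such difference holds between labels and not with certainty between cultivars.

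Several named unigenes nevertheless had unequal values in the cultivars. The chaperone list had a median log2 fold change of -2.49 in CB-1 and -0.04 in K326, with all 27 lower in CB-1 and 23 at an unadjusted p under 0.05, none of which held after adjustment. The names of many of these unigenes came from the sheet ordered by this very difference, so that nothing can be read from the count. ANN4 was higher under cold by 4.23 in CB-1 on the log2 scale, against 0.87 in K326 (adjusted p = 0.127 for the difference), and HBP-1b by 2.97 in CB-1, against 5.42 in K326 (adjusted p = 0.127). Both were picked here for their unequal values, and the name of ANN4 came from the same sheet, so these differences are not independent evidence. Other regulators had closer values. The log2 fold change of ELF4 was 6.30 in CB-1, against 6.07 in K326, that of WRKY33 (c78380_g1) was 5.90 in CB-1, against 5.92, and that of UPBEAT1 was -3.55 in CB-1, against -3.84. The K326 values rest in part on the library labelled KC2. Without it the K326 log2 fold change was 6.07 for ELF4, 4.61 for WRKY33, -4.08 for UPBEAT1, 1 for ANN4 and 5.39 for HBP-1b, and the median of the chaperone list in K326 was -0.34.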

How the data were processed

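Leaf RNA of CB-1 and K326 was sequenced by the study in 8 libraries, 2 in each of 4 groups. A joint assembly of the reads with Trinity gave the unigenes, onto which the authors aligned each library with bowtie for an RSEM estimate of abundance, and the deposited values are log2(value + 1) for 135146 unigenes. Versions and the scaling behind the value are not given in the sources used here. The linear values summed to between 409000 and 469000 per library, so they are not TPM. The study lists total reads per library, the fewest for CT1 and the most for CT2, but no counts per unigene were used, so no counting interval is given.

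The values were used as deposited, with a pseudocount of 1. Unigenes with a linear value of at least 1 in at least 2 of the CB-1 libraries were kept (25333). Group means over all 8 libraries were fitted with limma 3.58.1 in R 4.3.3, with a trend in the moderated variance, and the contrast CT minus CC was tested on both sides with Benjamini-Hochberg adjustment. Each adjusted p-value in the text is from this fit unless another is named. Summaries and plots were made with Python 3.11.15, pandas 2.3.3 and matplotlib 3.10.9. The fit was tested on simulated data.

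Alternatives were another pseudocount, other filters, median-ratio scaling, quantile normalization, tests without moderation, CB-1 libraries alone, all controls as one group, a replicate block, and each library left out in turn. A block with crossed control numbers and an unmoderated test of the 4 CB-1 libraries were added after the data were seen.

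The libraries were grouped by their labels. The members and gene lists were chosen with earlier results of these data known. Values in every library are given for the members with the largest changes in each list and those whose replicates disagree, for the unigenes with the largest rise and fall and for those with the highest values. Unigene IDs are not in the gene table used here (0 matched), so names are those the study gives, and of unnamed unigenes 2 that rose and 2 that fell are named. The sheet of names was read in shortened form.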

Additional observations from a re-analysis of the deposited data

How the results depend on the processing

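The 10373 calls in CB-1 became 4674 (2112 rises, 2562 falls) with a linear value of at least 5, where fewer unigenes were tested, and 2910 (1401 rises, 1509 falls) in an unmoderated test of the CB-1 libraries alone, chosen after seeing the data, which has only these libraries to judge the spread. Under the other alternatives they lay between 8075 and 11032. Leaving out 1 library at a time gave between 8075 and 10248 calls, with 3712 to 4860 rises and 4082 to 5389 falls. Under median-ratio scaling the median change was 0.04, against -0.22 as reported, and 57.3% of the calls were rises, against 47.2%. The count for the difference between the cultivars, 0, became 58 in the unmoderated test and ranged between 0 and 383 when 1 library was left out; the cause was not tested.

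The replicate numbers did not pair the libraries: replicate deviations correlated at -0.04 between CT and CC, at 0.01 between KT and KC and at -0.34 between CC and KC. A replicate block gave 10197 calls (4811 rises, 5386 falls) and 0 for the difference. With the numbers of KC crossed it gave 10292 and 0.

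Of 94 unigenes followed under the alternatives, 4 reversed. The early light-induced protein (c65239_g1) went to 0.01 under median-ratio scaling and 0.22 without CC1, ERF109 (c79891_g2) to -0.74 without CT2, and the HSP70 unigenes c15315_g1 and c81601_g7 to -0.03 and -0.11 with all controls as one group and to -0.61 and -0.37 without CT2. When 1 library was left out, the early light-induced protein lay between -0.85 and 0.22, ERF109 between -0.74 and 3.65, c15315_g1 between -0.61 and 1.12 and c81601_g7 between -0.37 and 0.69. Of the 4, ERF109 alone was called under any of these, without CT1. Leaving out a K326 library ended, in 2 to 4 of the 4 cases each, the calls of WRKY40 (c67824_g2), HSP83A (c84102_g2), CML31, TPS6, PER16, FLS2 and PUB23 (adjusted p between 0.0522 and 0.0831). Quantile normalization changed no call among the 94, median-ratio scaling ended 2, the replicate block 3 and the unmoderated test of the CB-1 libraries alone 61.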

Other observations

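Unigenes of one assembled component share the first part of their ID. Of 3702 components with 2 or more tested unigenes, 1205 had 2 or more that were called, where 40.9% of all tested unigenes were called. Of the 1205, 439 had only rises, 533 had only falls and 233 had calls in both directions, and no share by chance was computed. They can be parts or copies of one gene and can share reads, so they are not separate cases.

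In 1 component, chosen after its values were seen, all 11 tested unigenes rose (10 without CC2), by between 1.52 and 5.93 on the log2 scale. The only one of them with a name, TIC214 (c71384_g3), stood at 3.13 and 2.26 in the cold libraries, against 0 and 0.01 in the controls. TIC214, also called ycf1, is encoded in the chloroplast genome of most land plants. Another TIC214 unigene outside this component (c61064_g1) stood at 2.33 and 3.39 under cold, against 1.08 and 0, and lost its call without CC2 (adjusted p = 0.0732). All 6 tested unigenes of the HOP1 component fell (5 without CC2), by between 2.32 and 4.23 on the log2 scale, with control values between 1.81 and 5.92 and cold values up to 1.87.

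The 10 unigenes with the highest values held 8.84% and 8.34% of the summed linear value in CT1 and CT2, against 9.18% in CC1 and 12.8% in CC2. Unigenes above 0 numbered 51331 in CT1 and 44422 in CT2, against 45890 in CC1 and 41878 in CC2. The cold libraries differed by over 2 on the log2 scale for 1.3% of the tested unigenes, and the controls for 1.14%.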
